A study of Anas platyrhynchos with 6 samples.

Results

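STK39 encodes SPAK, a serine/threonine kinase of the Ste20 family, and in duck embryonic breast muscle it was the host of 11 of the 16631 circular RNAs listed. The circles were found by name: 8 are listed under STK39, and 3 are listed under the identifier ENSAPLG00000011513, whose gene description is the same as that of the STK39 rows. None of the 11 shares its end and strand with another row whose start lies 1 base away, so each is a junction of its own. STK39 was chosen because a circle of this gene was known to be higher at E19 than at E13. The stage difference of its circles is therefore given here as a description. Where a fit over the whole table put STK39 or one of its circles past the threshold, that is stated for scale and is no evidence for the difference.

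Circular RNA was sequenced from the breast muscle of female embryos of the Shan Ma duck (Shanma in the sample labels). The E19 group held 3 libraries of embryos at day 19, when most myoblasts have differentiated according to the labels. The E13 group held 3 libraries of embryos at day 13, before differentiation. The labels name no treatment, and both groups were kept under 1 incubation regime, depleted of ribosomal RNA and digested with RNase R, an enzyme that degrades linear RNA. Whole muscle was used, so fewer cells of a type and less RNA per cell cannot be told apart in any level below. The labels give the libraries as separate samples without naming the embryos. The study describes breast muscle of 3 female embryos at each stage. The spread between libraries may still be partly technical.

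A circular RNA forms when the splice donor at the end of an exon is joined backwards to the acceptor at the start of the same exon or of one upstream. A read across that joint, a back-splice read, is the unit counted here. SPAK is known from mammalian cells as a step between the WNK kinases and the cation-chloride cotransporters of the SLC12 family. WNK kinases phosphorylate and activate SPAK, the scaffold protein MO25 (gene CAB39) raises its activity, and SPAK phosphorylates cotransporters such as NKCC1, which adjusts cell volume and intracellular chloride. The kinase domain lies in the first part of the protein, and a conserved domain near its end docks to WNKs and cotransporters. Reads of the circular junction do not measure the linear mRNA or the protein.

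All 11 circles were exonic, lay on the minus strand of chromosome 7 and were assigned to transcript ENSAPLT00000011989. Coordinates are those of the deposited table, and the genome build behind them is not stated in the sources used. A listed start is the last base of the neighbouring intron, so that the exon begins 1 base later. Exon numbers run along the direction of transcription and reach exon 17. Where a circle was listed with flanking introns instead of exon numbers, its exons were worked out from the ends it shares and its exon count. A back-splice read shows only the ends of a circle. The exons between the ends are taken from the annotated transcript, and whether a circle keeps all of them was not observed. The exons that a circle is said to hold are meant in this sense throughout. Of the 11 circles, 4 start at exon 11 and thus share the same acceptor at position 23489619. They differ only in the exon at which they end. circRNA937 holds exons 11 to 13 (23486945 to 23489619, listed size 224 bases), circRNA936 holds exons 11 to 15 (from 23470309, 346 bases), circRNA935 holds exons 11 to 16 (from 23455201, 411 bases), and circRNA3480 holds exons 11 to 17 (from 23449505, 486 bases).

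The other 7 circles start elsewhere. circRNA10975 reaches back to exon 9 and ends with exon 13 (23486945 to 23507179, 339 bases). It is therefore circRNA937 with exons 9 and 10 added in front, and shares its donor. circRNA14732 holds exons 14 to 17 (23449505 to 23472299, 262 bases) and shares the donor of circRNA3480. The remaining 5 lie entirely upstream of exon 11. They are exon 8 alone (circRNA12015, 134 bases), exons 3 to 8 (circRNA12016, 653 bases), exons 3 to 10 (circRNA13994, 768 bases), exons 2 to 8 (circRNA5596, 766 bases) and exons 2 to 10 (circRNA9860, 881 bases).

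The listed sizes give the lengths of exon blocks. Subtracting nested circles gave 122 bases for exons 14 and 15, 65 for exon 16 and 75 for exon 17. These sum to the 262 bases listed for circRNA14732, as they should where all sizes are sums of exons of the same annotated transcript. In the same way, exons 9 and 10 came to 115 bases both from circRNA10975 minus circRNA937 and from circRNA13994 minus circRNA12016. The sizes may count 1 base too many per exon, because they start at the last intron base.

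**Figure D1:**
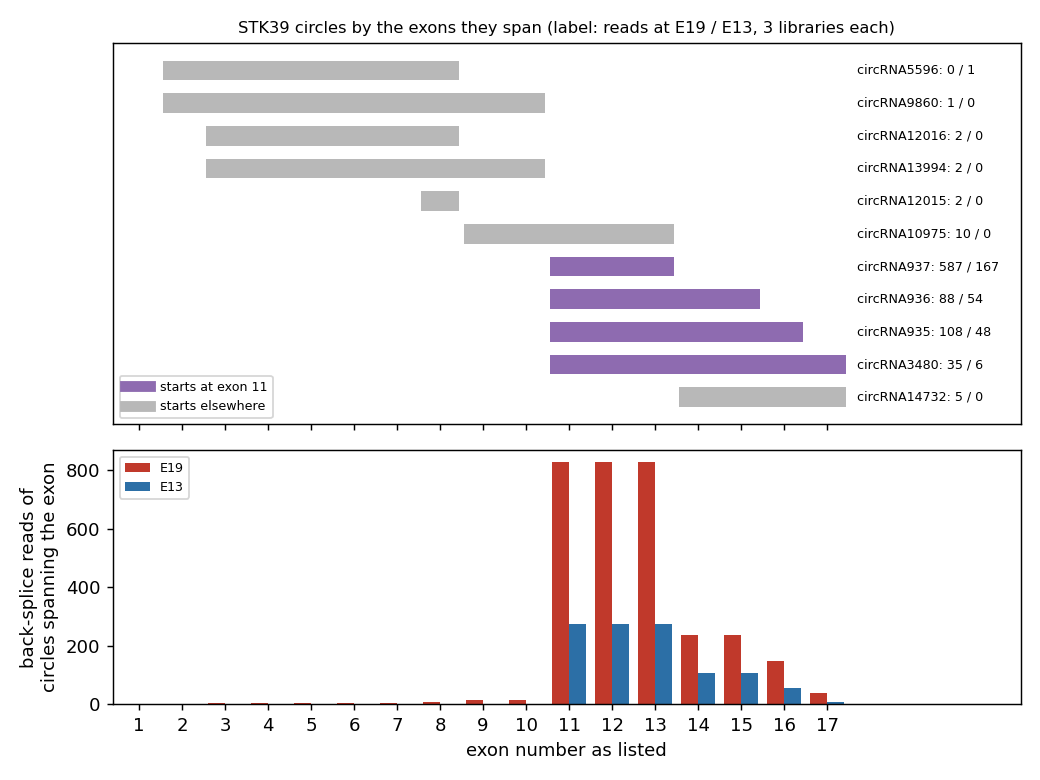
Upper panel, the 11 STK39 circles drawn by the exons they span (x axis, exon number, listed or worked out from shared ends). Circles are purple where exon 11 is the first exon and grey otherwise. Each has its back-splice reads over the 3 E19 libraries and over the 3 E13 libraries. Lower panel, reads of all circles whose ends span each annotated exon, E19 bars left of E13 bars. Exons 11 to 13 are spanned by circles with 828 reads at E19 and 275 at E13. Exons 9 and 10 are spanned by circles with 13 reads at E19 and none at E13.

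Reads were concentrated on a few circles. Over the 6 libraries STK39 had 1116 back-splice reads, of which circRNA937 alone held 754. circRNA935 held 156, circRNA936 held 142, circRNA3480 held 41 and circRNA10975 held 10. Those 5 circles passed the minimum of 10 reads over all libraries, and circRNA10975 sat exactly at it. The 6 below it had 1 to 5 reads each and 13 together, so nothing can be said of their levels beyond their detection. Of the 11 circles, 5 were seen in a single library. The number of circles with reads was 6, 7 and 7 in the E19 libraries, against 4, 4 and 2 in the E13 libraries. These numbers are not at equal depth, since the E19 libraries held 285, 320 and 235 STK39 reads, against 101, 104 and 71 in the E13 libraries.

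STK39 as a whole gave 285, 320 and 235 circular reads in E19 libraries 1, 2 and 3, against 101, 104 and 71 in E13 libraries 1, 2 and 3. Every E19 library lay far above every E13 library. In the deposited unit SRPBM, which scales junction reads to the mapped sequence of the library, the sum was 67.9 ± 11.9 in E19 muscle and 22.8 ± 5.09 in E13 muscle (SD, n = 3 each). With mapped reads as library size, the log2 difference of E19 over E13 was 1.57 (SE 0.362), or 2.97-fold. Among 1836 host genes fitted together, 1.80 percent passed the threshold of an adjusted p of 0.05 in that direction, and in 10.4 percent every E19 library lay above every E13 library. STK39 was in both sets, and since it was chosen on this contrast nothing is read from that. Without E13 replicate 3 the difference was 1.41 and no longer passed.

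circRNA937, the circle of exons 11 to 13, had 194, 232 and 161 reads in the E19 libraries, against 53, 61 and 53 in the E13 libraries. The lowest E19 library was far above the highest E13 library, and the E13 libraries lay close together. Its mean level was 47.5 ± 9.7 SRPBM at E19 and 13.8 ± 2.06 SRPBM at E13 (SD, n = 3 each), a log2 difference of 1.78 (SE 0.388), or 3.43-fold. In rank among all junctions with reads, it stood at place 26, 23 and 27 in the E19 libraries, against 183, 71 and 136 in the E13 libraries. Of the reads of all junctions, each counted once, it carried 0.325 to 0.333 percent in the E19 libraries, against 0.0904 to 0.167 percent in the E13 libraries.

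circRNA935, which runs on to exon 16, had 35, 27 and 46 reads at E19, against 13, 17 and 18 reads at E13. Here too the stages did not overlap, but the gap was narrow, 27 against 18 reads. The mean was 8.67 ± 2.09 SRPBM at E19 and 3.98 ± 0.837 SRPBM at E13, and the log2 difference was 1.12 (SE 0.557).

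circRNA936, which ends at exon 15, had 34, 40 and 14 reads at E19, against 29, 25 and 0 reads at E13. The stages overlapped, and at each stage replicate 3 was far below the other two. The mean was 7.15 ± 3.43 SRPBM at E19 and 4.46 ± 3.86 SRPBM at E13, so that the SD at E13 was nearly as large as the mean. Its log2 difference was 0.68 (SE 0.63). Nothing in the labels ties replicate 3 of one stage to replicate 3 of the other.

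circRNA3480, the longest of the circles that start at exon 11, had 16, 13 and 6 reads at E19, against 6, 0 and 0 reads at E13. The lowest E19 library tied with the highest E13 library in reads and stood barely above it in SRPBM, 1.41 against 1.39. Its mean was 2.84 ± 1.28 SRPBM at E19 and 0.465 ± 0.805 SRPBM at E13. The log2 difference was 2.50 (SE 1.28). Summed over libraries, 35 reads at E19 against 6 reads at E13 gave a ratio per mapped read of 5.71. Its 95% interval of 2.38 to 16.6 covers counting error only and leaves out the spread between libraries.

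circRNA10975, with exons 9 and 10 in front of circRNA937's exons, had 5, 5 and 0 reads at E19, against 0 in all 3 E13 libraries. It was thus seen in 2 of 3 E19 libraries. Against a floor of 3 reads over the E13 libraries, the ratio per mapped read was 3.26, which leaves out any error in the E19 reads. It reached the minimum of 10 reads only through the E19 libraries. The fitted log2 difference was 4.80 (SE 2.67) and did not pass the threshold.

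**Figure D2:**
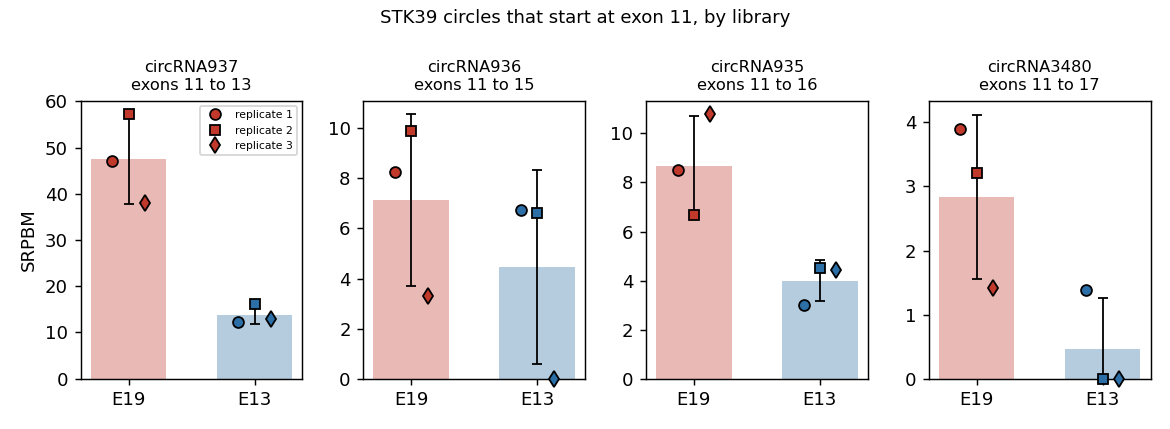
Level in SRPBM (y axis, a separate scale per panel) of the 4 STK39 circles that start at exon 11. Bars are means of 3 libraries, E19 left and E13 right, error bars are SD, and each symbol is a library. In circRNA937 and circRNA935 every E19 symbol lies above every E13 symbol, while circRNA936 overlaps between the stages and has an E13 library at 0.

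Of the 5 STK39 junctions fitted with the rest, 1 passed the threshold, circRNA937. Of all 3608 junctions fitted 42 passed, 1.16 percent, of which 28 were higher and 14 lower at E19. The share higher at E19 was 0.776 percent. In 9.65 percent of those junctions every E19 library lay above every E13 library in reads per mapped read. In SRPBM this held for circRNA937 and circRNA935 and, by the narrow margin given above, for circRNA3480. These shares are printed for scale, as the gene was chosen on the same contrast. The call for circRNA937 was lost, with a log2 difference of 1.70, 1.74 or 1.62, when E13 replicate 1, E13 replicate 3 or E19 replicate 2 was left out.

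The comparison of circles by their first exon was dominated by exon 11. Circles that start there had 279, 312 and 227 reads in the E19 libraries, against 101, 103 and 71 reads in the E13 libraries. Their sum was 66.1 ± 11.9 SRPBM at E19 and 22.7 ± 4.97 SRPBM at E13, a log2 difference of 1.54 (SE 0.368), or 2.91-fold. The stages did not overlap. Without any of the libraries other than E19 replicate 3 the sum no longer passed the threshold, while its log2 difference stayed between 1.38 and 1.69.

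The 7 circles that do not start at exon 11 had 6, 8 and 8 reads together in the E19 libraries, against 0, 1 and 0 reads in the E13 libraries. They were few in every library, and each E19 library had more of them than any E13 library. Their sum was 1.77 ± 0.277 SRPBM at E19 and 0.0884 ± 0.153 SRPBM at E13. As 22 reads against 1 read the ratio per mapped read was 21.5, with a counting interval of 3.48 to 889. That interval is wide, and the fitted log2 difference of 3.97 had an SE of 2.05.

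Seen from the acceptor, 97.9, 97.5 and 96.6 percent of the STK39 reads joined to exon 11 in the E19 libraries, against 100, 99 and 100 percent in the E13 libraries. The 95% Wilson intervals reached from 93.4 to 99 percent over the E19 libraries and from 94.8 to 100 percent over the E13 libraries, and they overlapped. By stage the mean share was 97.3 ± 0.666 percent at E19 and 99.7 ± 0.555 percent at E13. For the circles that start elsewhere, 0 of 101 reads in E13 library 1 allows a share of up to 2.97 percent, and 0 of 71 reads in E13 library 3 allows up to 4.23 percent, taking 3 reads as the limit that a count of 0 allows. The upper Wilson bounds of the same shares were 3.66 and 5.13 percent. The shares in the E19 libraries were 2.11, 2.5 and 3.4 percent, against 0, 0.962 and 0 percent in the E13 libraries, and did not overlap between the stages. They rest on 22 reads at E19 and 1 read at E13. PCR copies were not marked in these libraries, and all such intervals and limits cover counting error only.

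Within the circles that start elsewhere, 2 involve the same region as the main circles. circRNA10975 and circRNA14732 together had 5, 5 and 5 reads in the E19 libraries, against 0, 0 and 0 reads in the E13 libraries. The reads came from different circles, since libraries 1 and 2 held only circRNA10975 and library 3 only circRNA14732. The 5 circles upstream of exon 11 had 1, 3 and 3 reads at E19, against 0, 1 and 0 reads at E13. Exon 1 was in none of the circles, and no exon before exon 11 lay in circles with more than 1.16 percent of the gene's reads.

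Read the other way, by the donor exon at which a circle ends, the reads were more evenly spread. Circles that end with exon 13 had 597 reads at E19 and 167 at E13. Those ending with exon 16 had 108 at E19 and 48 at E13, those ending with exon 15 had 88 at E19 and 54 at E13, and those ending with exon 17 had 40 at E19 and 6 at E13. The acceptor of exon 11 was thus joined to 4 donors, and no other acceptor of the gene was joined to more than 2. In terms of annotated exons, 98.8 percent of the reads came from circles whose ends span exons 11 to 13. For exons 14 and 15 this was 30.8 percent, for exon 16 it was 18.1 percent and for exon 17 it was 4.12 percent. These shares follow from the ends of the circles and do not measure the inner exons.

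Among the reads that start at exon 11, circRNA937 took 69.5, 74.4 and 70.9 percent in the E19 libraries, against 52.5, 59.2 and 74.6 percent in the E13 libraries. E13 libraries 1 and 2 lay below all E19 libraries and E13 library 3 lay marginally above them. The mean share was 71.6 ± 2.48 percent at E19 and 62.1 ± 11.4 percent at E13, and the stages overlapped. The Wilson interval of E13 library 3, with 71 reads, ran from 63.4 to 83.3 percent, and that of E13 library 1, with 101 reads, from 42.8 to 61.9 percent.

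The 3 longer circles, which run on past exon 13, made up 30.5, 25.6 and 29.1 percent of the exon 11 reads in the E19 libraries, against 47.5, 40.8 and 25.4 percent in the E13 libraries. The longer forms had a larger share in E13 libraries 1 and 2 than in any E19 library, and a smaller share in E13 library 3. That library held neither circRNA936 nor circRNA3480. In it, 0 of 71 reads allows a share of up to 4.23 percent for circRNA936, below the Wilson intervals of 20.8 to 38.2 percent and 17 to 33.4 percent in E13 libraries 1 and 2.

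circRNA936 and circRNA935, which differ by exon 16 alone in the annotation, exchanged order between libraries. circRNA936 took 12.2, 12.8 and 6.17 percent of the exon 11 reads in the E19 libraries, against 28.7, 24.3 and 0 percent in the E13 libraries. circRNA935 took 12.5, 8.65 and 20.3 percent in the E19 libraries, against 12.9, 16.5 and 25.4 percent in the E13 libraries. At each stage the library with the smallest share of circRNA936 had the largest share of circRNA935. Shares of the same total are tied, so that a fall in one raises the others. In SRPBM circRNA935 stood at 8.51, 6.67 and 10.8 in the E19 libraries, against 3.02, 4.51 and 4.43 in the E13 libraries. Its level was thus not highest in E13 library 3, where its share was. In E19 library 1 they were level, at 34 and 35 reads. The stages overlapped in the share of each circle, and neither circle led in all 3 libraries of a stage.

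**Figure D3:**
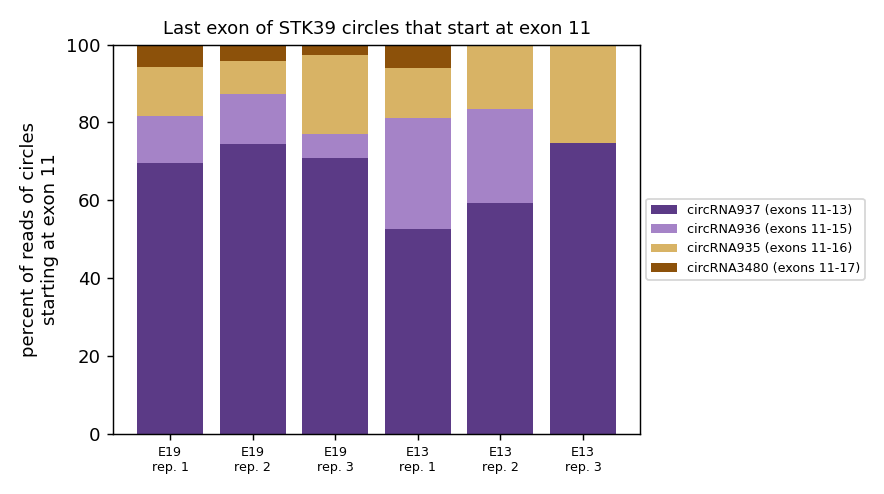
Share of each circle (y axis, percent) among the reads of the 4 STK39 circles that start at exon 11, 1 bar per library, E19 libraries left of E13 libraries. circRNA937 takes between 52.5 and 74.6 percent in all 6 libraries, and circRNA936 is missing from E13 replicate 3, where circRNA935 reaches 25.4 percent.

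Flanking introns are listed for only part of the exonic circles, and 10179 are listed with exon numbers instead. The intron before exon 11 runs from 23489620 to 23506959 and is 17340 bases long, longer than 76.9 percent of the 4079 introns listed beside exonic circles, whose median is 6989 bases. The intron after exon 13 runs from 23472300 to 23486945 and has 14646 bases, longer than 71.8 percent of them. circRNA937 thus lies between a pair of introns well above the median. The intron between exons 8 and 9, which flanks circRNA10975, has 3374 bases and is longer than 29.6 percent. No sequence of the introns or exons was examined.

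STK39 can be set beside other host genes in how its reads are spread over acceptors. Of the genes with at least 5 exonic junctions and 100 reads, 310 were compared, STK39 included. In STK39 97.9 percent of the reads used the most used acceptor, shared by 4 junctions, against a median of 73.3 percent and 3 junctions over the 310 genes. A share as high or higher was found in 20 genes, 6.45 percent, and 14 of these also had 4 or more junctions at that acceptor. STK39 is counted in both numbers. STK39 is therefore toward the upper end without being alone there. Its leading junction held 67.6 percent of the gene's reads, against a median of 56.9 percent, and 37.1 percent of the genes had a leading junction with at least that share.

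**Figure D4:**
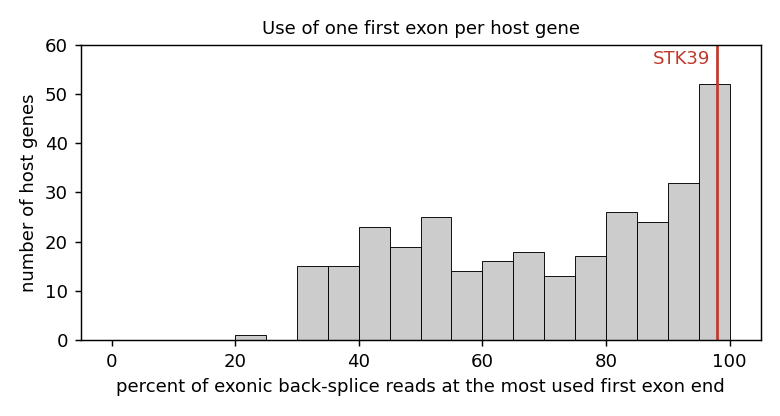
Number of host genes (y axis) by the percent of their exonic back-splice reads that use the most used first exon acceptor (x axis), for 310 genes with at least 5 exonic junctions and 100 reads over 6 libraries. The red line marks STK39 at 97.9 percent, a value reached or exceeded by 20 of the genes, STK39 itself counted.

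In exon position, across 10179 exonic circles with exon numbers the median first exon was exon 4, and 23.7 percent started at exon 2. Exon 11 or a later exon was the first in 21 percent of the circles, which held 11.5 percent of the reads. circRNA937 was also small for its number of exons. Of the 2461 exonic junctions with 3 exons, whose median listed size is 378 bases, 81, or 3.29 percent, were listed smaller than its 224 bases. With 11 junctions STK39 was among the 185 hosts, 4.48 percent of 4129, that had at least as many, and the median host had 2.

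Few circles were listed under the symbols of the WNK and SPAK pathway genes. Of 2099 Ensembl identifiers 1245 were joined to a symbol, so circles listed only under the others would be missed here. Of 21 genes in the list, 8 had circles and 5 had enough reads to be fitted, and none passed the threshold in either direction, against 2.72 percent of all genes (1.80 percent higher and 0.926 percent lower at E19). Their median log2 difference was -0.28, and that of all genes fitted was 0.24. No circle was listed under OXSR1, the closest relative of STK39, or under any of the cotransporter genes SLC12A1 to SLC12A7. WNK2, a kinase upstream of SPAK, had 68, 93 and 54 reads at E19, against 48, 46 and 56 reads at E13, which overlapped, with a log2 difference of 0.49 (SE 0.404). WNK1, another upstream kinase, had 0, 4 and 1 reads at E19, against 9, 2 and 3 reads at E13. CUL3, the scaffold of the ubiquitin ligase that degrades WNK kinases, had 6, 2 and 1 reads at E19, against 4, 11 and 3 reads at E13. Both overlapped between the stages. CAB39L, which encodes a form of the MO25 scaffold, had 0, 14 and 0 reads at E19, against 0, 0 and 1 reads at E13, so that a single library held nearly all of them.

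Of 29 other kinases of the Ste20 family, 10 had circles under their symbols and 7 were fitted, and none passed the threshold. Their median log2 difference was 0.42. MAP4K5, a kinase of the MAP4K group, had 30, 18 and 34 reads at E19, against 32, 0 and 40 reads at E13, with a log2 difference of 0.18 (SE 0.536). The stages overlapped, and E13 library 2 had none. MAP4K3, linked in mammalian cells to amino acid signalling, had 14, 12 and 13 reads at E19, against 1, 8 and 7 reads at E13, with a log2 difference of 1.21 (SE 0.959). Here the stages did not overlap, but the threshold was not passed. STK4, the Hippo pathway kinase, had 6, 2 and 5 reads at E19, against 4, 2 and 5 reads at E13, and overlapped fully. None of the Ste20 kinases fitted other than STK39 had as many circular reads as STK39.

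The tissue was checked by circles of marker genes. Of 16 skeletal muscle genes 7 had circles under their symbols. These had 209, 315 and 157 reads together at E19, against 123, 88 and 126 reads at E13. Of them 5 were fitted and 1 passed the threshold, against 2.72 percent of all genes. Their median log2 difference was 1.75, and that of all genes fitted was 0.24. None of the muscle genes fitted was lower at E19. MYBPC1 and MYOM2 reached the minimum of 10 reads only through the E19 libraries, so their direction was close to fixed beforehand. The median includes both genes, and nothing is read from it. The circles of DMD, the dystrophin gene, had 51, 53 and 60 reads at E19, against 9, 17 and 21 reads at E13, and were higher at E19 by 1.75 on the log2 scale, past the threshold of the edgeR fit. That call was lost without any library other than E13 replicate 3, with a difference of 1.45 to 1.86 in the fits that lost it. LDB3, which encodes a Z-disc protein, held 744 of the muscle marker reads, with 143, 234 and 83 at E19, against 110, 69 and 105 at E13. The stages overlapped, and its log2 difference of 0.69 (SE 0.363) did not pass. MYBPC1 had 12, 10 and 0 reads at E19, against 0 in each E13 library, a log2 difference of 5.90 (SE 2.22). MYOM2 had 20 and 2 reads (3.03, SE 1.83), and MYOM1 had 6 and 4 (0.57, SE 2.11). None of these passed, and all rest on few reads. No circle was listed under the symbols TTN, NEB, RYR1, CACNA1S, MYH1, TMOD4, TRDN, MYOD1 or MYF5. Several defining muscle genes therefore cannot be checked here, and circles under an Ensembl identifier without a symbol would be missed.

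Few circles were listed under the symbols of connective tissue, blood and liver markers, with the same limit. Of the 5 connective tissue genes only COL1A2 had circles, with 3, 0 and 13 reads at E19, against none at E13. No circle was listed under the symbols of the 4 blood and 3 liver genes. Muscle genes such as TTN and NEB had none either, so a lack of circles does not show that a tissue was absent. The part of the muscle and connective tissue markers in the STK39 values was not tested.

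CERS6, a ceramide synthase gene, is the next gene to STK39 in the RefSeq annotation of the duck assembly IASCAAS_PekinDuck_T2T, and its circles are listed on the opposite strand of chromosome 7. Its 7 junctions had 472 reads over the E19 libraries, the lowest with 121, against 178 over the E13 libraries, with 78, 54 and 46 in each. The stages did not overlap, and the log2 difference was 1.39 (SE 0.376), past the threshold. The call was lost without E13 replicate 2 (1.37), E13 replicate 3 (1.23), E19 replicate 1 (1.38) or E19 replicate 2 (1.20). In the E19 libraries both genes had the most reads in library 2 and the fewest in library 3. In the E13 libraries both had the fewest in library 3. There the most CERS6 reads were in library 1 and the most STK39 reads in library 2, with 104 against 101 in library 1. The leading circle of CERS6, circRNA939 (23662790 to 23676493), had 113, 144 and 81 reads at E19, against 46, 33 and 29 reads at E13. Its log2 difference of 1.63 (SE 0.427) passed with all 6 libraries and not when any was left out (1.39 to 1.83). circRNA938 of the same gene (23614538 to 23616968) had 34, 37 and 27 reads at E19, against 28, 17 and 12 reads at E13, a smaller difference of 0.76 (SE 0.556) that did not pass, and its lowest E19 library lay just below its highest E13 library.

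Farther away within 1 Mb, no other host gene that was fitted passed the threshold. UBR3, with 13 junctions, had 33, 20 and 6 reads at E19, against 29, 11 and 14 reads at E13, a log2 difference of 0.13 (SE 0.617). ENSAPLG00000014616 had 5, 5 and 21 reads at E19, against 31, 5 and 9 reads at E13, a difference of -0.54 (SE 0.776). Both overlapped between the stages. On the other side of STK39 the RefSeq annotation has B3GALT1 and XIRP2, and no circle was listed under either symbol.

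**Figure D5:**
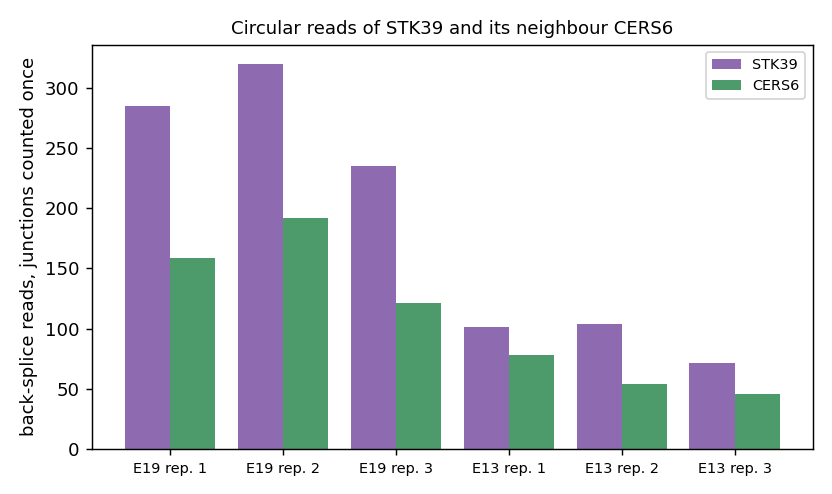
Back-splice reads (y axis) of all STK39 circles and of all CERS6 circles in each library, E19 libraries left of E13 libraries. STK39 has 235 to 320 reads at E19 and 71 to 104 at E13, and CERS6 has 121 or more reads at E19 and 46 to 78 at E13.

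A further circle on the minus strand, circRNA14908, was typed as intergenic and is no member by name. It runs from 23506959 to 23527218, so that it ends at the donor of exon 10 used by circRNA13994 and circRNA9860, and starts upstream of every STK39 circle. It had 0, 0 and 9 reads at E19, against 0, 0 and 0 reads at E13. Counted with the gene, it changed the log2 difference of STK39 as a whole to 1.59.

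Outside the gene, the 5 junctions whose levels over the 6 libraries were most like those of circRNA937 were picked from 1039 with at least 50 reads. The measure was Pearson's r of log2 reads scaled to mapped reads, given as a description. The libraries fall into 2 stages that are apart in circRNA937, so a high r needs little more than the same stage difference, and 45 junctions had an r of 0.9 or more. First came circRNA4080, an intergenic junction of chromosome 16, with r of 0.991 and 99, 128 and 73 reads at E19, against 24, 31 and 30 reads at E13. circRNA1399, a single exon of ADGRL3, a latrophilin adhesion receptor gene, followed with r of 0.985 and 127, 162 and 111 reads at E19, against 54, 67 and 59 reads at E13. Both were higher in every E19 library than in any E13 library. circRNA10604 of NAV3, a gene of the neuron navigator family, had r of 0.985, with 22, 21 and 15 reads at E19, against 0 reads in each E13 library. circRNA10256 of ENSAPLG00000026000 had r of 0.983, with 27, 56 and 24 reads at E19, against 2, 2 and 3 reads at E13. circRNA3448 of ENSAPLG00000029004 had r of 0.979, with 53, 46 and 37 reads at E19, against 19, 18 and 17 reads at E13. Inside the gene the same measure was 0.835 for circRNA935 and 0.498 for circRNA936, as a description of circles that were not picked by it.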

How the data were processed

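Cutadapt was used by the authors for trimming, Bowtie 2 and TopHat 2 for mapping, TopHat-Fusion for unmapped reads, and CIRCexplorer2 and CIRI for calling circles. Tool versions and the genome build are not stated in the sources used. The counts as deposited hold the back-splice reads of each circle in each library, not normalized. The SRPBM signal was computed by the authors by scaling these counts to the mapped sequence of each library. A deposited table of the authors' own fold changes, p-values and q-values between the stages was not used.

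Rows with equal chromosome, end and strand and starts 1 base apart were taken as 1 junction with the larger count per library, which left 14917 of 16631 rows. Of 2099 Ensembl identifiers, 1245 were joined to a symbol by an equal gene description, giving 4129 host genes. Over all rows as listed, before any were joined, the 6 libraries held 43849 to 88916 back-splice reads in the table. Stages were compared with the quasi-likelihood test of edgeR 4.0.16 in R 4.3.3, with the mapped reads given by the study as library size, on features with at least 10 reads, and p-values were adjusted by Benjamini-Hochberg over the whole table at 0.05. Sums of circles were added as features of the same fit. The SE of a log2 difference is its size over the root of the F statistic. Similarity used log2 values with a pseudocount of 0.1 RPM (mapped reads as the total).

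The gene, its exon 11 comparison, the gene lists and the markers were chosen with earlier results of these data known. Named are all STK39 circles with at least 10 reads, from each list the genes past the threshold and at most 4 others with the most reads, and the 5 junctions most like circRNA937. The remaining STK39 circles, CERS6 and the other neighbours were named after their values were seen. On simulated data of 2973 junctions for this comparison, 18 of 57 junctions changed 8-fold were called, 11 of 55 changed 4-fold and 0 of 57 changed 2-fold. None of 2804 unchanged ones was called. A missed call therefore says little. These rates pool junctions of all read levels from 10 reads up, and were not worked out for circles with as many reads as circRNA935 or circRNA936. Alternatives tried were other library sizes, DESeq2 1.42.0, no filter, other handling of paired rows, the second count table, leaving out each library and a replicate block. A further marker list is not reported here.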

Additional observations from a re-analysis of the deposited data

How the results depend on the processing

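No log2 difference of an STK39 circle, of the gene or of its sums changed sign under any alternative run. The log2 difference ranged from 1.43 to 1.92 for circRNA937, from 0.85 to 1.27 for circRNA935, from 0.10 to 1.23 for circRNA936, from 1.95 to 6.54 for circRNA3480, from 1.25 to 1.73 for the gene and from 3.49 to 5.91 for the circles not starting at exon 11. circRNA10975 ranged from 3.89 to 5.35 and could not be fitted without E19 replicate 1 or 2. The number of STK39 junctions past the threshold was 1 in 11 of 14 alternatives and 0 without E13 replicate 1, E13 replicate 3 or E19 replicate 2 (range 0 to 1). The gene lost its call without E13 replicate 3, at 1.41. The sum of circles starting at exon 11 passed with all libraries and lost its call in 5 of the 6 fits without a library, in which it ranged from 1.38 to 1.69 over all 6. Of all junctions 42 passed, against 76 with DESeq2 and 2 to 29 without a library, the fewest without E13 replicate 1. Mapped reads as library size set the median junction at 0.26, TMM factors at 0.10, DESeq2 at 0.09 and total back-splice reads at -0.04, and relative to that median circRNA937 stood at 1.52, 1.48, 1.49 and 1.47. With total back-splice reads 14 junctions were called higher and 18 lower at E19, against 28 higher and 14 lower with mapped reads. Correlations of the deviations from the stage means were -0.0469, -0.0394 and -0.0379 for libraries of the same replicate number. For unlike numbers they were 0.0102 to 0.0282. All were small, and with 3 libraries per stage they cannot settle whether replicate numbers pair the libraries. With a replicate block circRNA937 was at 1.77, the gene at 1.58, the exon 11 sum at 1.55 and the junctions called at 35. The call of CERS6 held under each alternative that kept all libraries. That of DMD was lost with DESeq2, with no filter and with total back-splice reads, and that of circRNA939 with no filter, with paired rows added, with total back-splice reads and with the block. Counting circRNA14908 with the gene was an alternative chosen after seeing the data. Depth limits the 6 circles under 10 reads, and the circles that start elsewhere than exon 11 had 1 read at E13.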
